A study of Homo sapiens with 12 samples.

Results

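The genes described here are antiviral effectors that interferon induces: the IFIT genes IFIT1, IFIT2, IFIT3 and IFIT5, the GTPase gene MX1, the neighbouring genes RSAD2 and CMPK2, and IFI6, IFI44 and IFI44L. They were listed by name, and the list was made with earlier results of these data known. Of the 10 genes, 7 had a row among the 16599 genes of the count table, and IFIT1, IFIT2 and IFIT3 were not analysed here. All 7 passed the filter on low counts. The 12 libraries formed 4 groups, each of 3 libraries of polyadenylated RNA. They were A549 cells labelled untreated, A549 cells over-expressing SRSF2, H1650 cells labelled untreated and H1650 cells over-expressing SRSF2. A549 and H1650 are established human lung cancer cell lines, and SRSF2 is a serine/arginine-rich splicing factor. The untreated libraries are titled NC without an explanation of the letters. How SRSF2 was over-expressed, and whether the control cells carried a construct, is not given in the sources used here.

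Interferons of type I and type III bind receptors at the cell surface and activate the kinases JAK1 and TYK2. These phosphorylate transcription factors of the STAT family, which join IRF9 and bind the interferon-stimulated response element in the promoters of target genes. Cells also switch on many of the same genes when the RNA sensors RIGI and IFIH1 detect viral or double-stranded RNA. Epithelial cells of the lung are a site of respiratory virus infection, and the effector genes limit virus replication there.

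Of the 7 genes, 6 held the core of that element in a promoter window of RefSeq on GRCh38.p14. The core was searched as GAAA, any 2 bases and GAAA again, on both strands. A window runs from 250 bases before to 50 bases after an annotated gene start, and several of the genes have more than 1 start. These stretches are shown because they are the sequence feature that most of the genes share. The capitals mark each match, and a match that begins with TTTC lies on the opposite strand. Each line runs 5′ to 3′ on the gene's strand, through the window of that gene with the most matches.
IFIT5: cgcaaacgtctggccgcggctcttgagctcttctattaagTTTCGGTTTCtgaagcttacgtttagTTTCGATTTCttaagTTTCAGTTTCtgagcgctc
MX1: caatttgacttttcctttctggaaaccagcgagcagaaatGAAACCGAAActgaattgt
RSAD2: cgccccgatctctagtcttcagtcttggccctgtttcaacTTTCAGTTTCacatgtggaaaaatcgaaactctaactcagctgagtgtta
IFI6: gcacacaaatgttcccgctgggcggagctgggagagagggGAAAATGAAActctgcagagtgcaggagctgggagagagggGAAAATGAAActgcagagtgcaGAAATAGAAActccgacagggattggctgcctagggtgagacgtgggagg
IFI44: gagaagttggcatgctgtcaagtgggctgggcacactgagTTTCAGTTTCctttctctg
IFI44L: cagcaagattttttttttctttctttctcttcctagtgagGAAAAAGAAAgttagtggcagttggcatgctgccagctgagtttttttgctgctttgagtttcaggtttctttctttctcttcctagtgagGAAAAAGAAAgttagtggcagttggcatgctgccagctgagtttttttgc

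The stretch of IFIT5 lies at chr10:89414483-89414582 (plus strand), that of MX1 at chr21:41420529-41420587 (plus), that of RSAD2 at chr2:6877592-6877681 (plus), that of IFI6 at chr1:27672236-27672388 (minus), that of IFI44 at chr1:78649731-78649789 (plus) and that of IFI44L at chr1:78620244-78620424 (plus). IFI6 had 3 matches, starting 156, 115 and 93 bases before the gene start. IFIT5 had 3 as well, closer together, at 45, 19 and 4 bases before the start. IFI44L had 2 identical matches, and MX1, RSAD2 and IFI44 had 1 each in the windows shown. The MX1 match begins 11 bases after the start of that window's gene model. The RSAD2 window belongs to a RefSeq start that lies inside the GENCODE span of the gene. In the 3 windows of CMPK2 these letters were not found. Over the whole table the core was found in 3.57% of 35116 windows, and 4.38% of 27305 genes had it in at least 1 window. The stricter form has a further G in front, and each match of it is also a match of the core. It was found in 1.16% of windows and 1.42% of all genes, and in 4 of the 7 genes: MX1, IFI6, IFI44 and IFI44L. TTCNNNGAA, the form of the gamma-activated site, was found in 7.66% of windows and 9.38% of all genes, and in 1 of the 7 genes, MX1. The stricter form and this match of MX1 lie in the window of another annotated start, not in the stretch printed above. A match is a description of letters and not a measured binding site.

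Total counts ranged from 23876899 to 32079027 per library, so that 3 counts corresponded to between 0.0935 and 0.126 CPM (counts scaled to a fixed library total) when computed from plain totals. Values below are CPM scaled by TMM (trimmed mean of M-values) factors, as means ± SD of 3 libraries. The labels do not say whether replicates came from separate cultures, and p-values therefore cover only the spread between these libraries, which may be technical. SRSF2 itself was not analysed here, and its over-expression was not checked. All 6 epithelial markers were measured in both lines, summing to between 9325 and 10459 CPM, computed from plain totals, in every library. Only 2 of 9 leukocyte markers had a row, CD14 and NKG7. Their sum, also from plain totals, was at most 6.68 CPM and was lower in the SRSF2 than in the untreated A549 libraries. The line markers ALDH3A1 (2819 ± 42.2 CPM) and AKR1B10 (4386 ± 41.4 CPM) were high in untreated A549 and below 1 CPM in H1650. Within the H1650 SRSF2 group, replicates 1 and 3 were farthest apart over all genes (chi-square over its degrees of freedom 7.78, against 5.68 for replicates 1 and 2 and 5.11 for 2 and 3).

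All 7 genes were higher with SRSF2 over-expression in both lines, and all 7 were higher in H1650 than in A549 whatever the treatment. The lines differed in which genes rose most. In A549 the largest rises were in MX1 and IFI44L, both above 20-fold in mean level. In H1650, RSAD2 rose 25.3-fold while MX1, IFI6 and IFI44L rose by less than 1.6-fold. Their untreated levels in H1650 were 65.4 CPM for RSAD2, 1522 CPM for MX1, 1279 CPM for IFI6 and 147 CPM for IFI44L. Whether the size of a rise depends on the starting level was not tested.

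**Figure D1:**
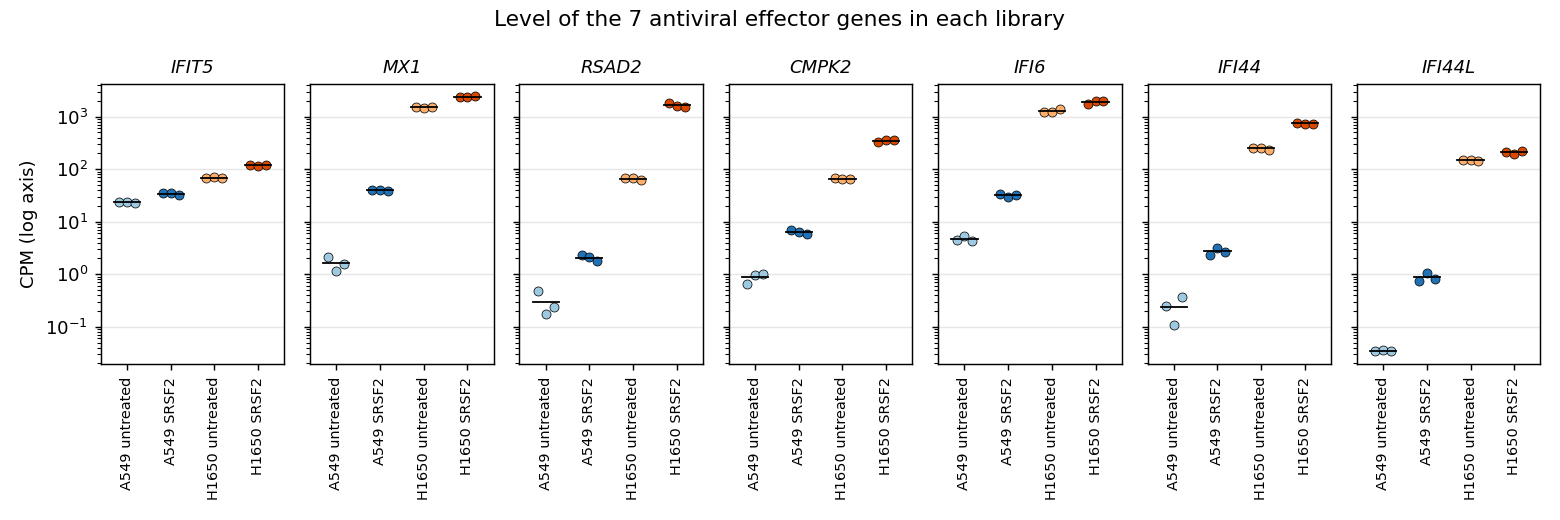
Level of each gene in each of the 12 libraries, in CPM on a log axis; points are libraries and the black line is the mean of 3. In every panel the order of the groups is untreated A549, SRSF2 A549, untreated H1650 and SRSF2 H1650 from lowest to highest, and no library of a group reaches the next group.

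IFIT5 is the only analysed member of the IFIT family, whose proteins bind viral RNA through tetratricopeptide repeats. Its gene (ENSG00000152778, GRCh38 chromosome 10, 89414586 to 89421001, plus strand) overlaps no other gene in GENCODE 29. It gave 23.5, 23.96 and 22.8 CPM in the untreated A549 libraries and 34.99, 35.4 and 32.4 CPM in the SRSF2 libraries. In H1650 it gave 69.4, 72.1 and 66.99 CPM untreated and 119, 117 and 121 CPM with SRSF2. The groups did not overlap in either line. The rise was 1.47-fold in A549 (log2 0.55, SE 0.05, edgeR adjusted p = 8.25e-10) and 1.72-fold in H1650 (log2 0.78, SE 0.04, edgeR adjusted p = 8.82e-17). In A549 this was the smallest rise of the 7.

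MX1 encodes a dynamin-like GTPase that blocks influenza and other viruses (ENSG00000157601, chromosome 21, 41420304 to 41459214, plus strand). A non-coding antisense gene, AP001610.1, overlaps it, and their reads cannot be told apart, because the sources used here do not say whether counting used strand. The untreated A549 libraries held 61, 32 and 46 counts of MX1 (2.13, 1.13 and 1.57 CPM) and the SRSF2 libraries 996, 1141 and 988 (40.7, 39.7 and 38.8 CPM). All SRSF2 libraries were thus far above all untreated ones. The rise was 24.7-fold, with a 95% counting interval of 20.8 to 29.4 (edgeR adjusted p = 2.59e-29), and it ranked 4 from the top of the 15991 genes tested. In H1650, MX1 was at 1537, 1477 and 1553 CPM untreated and at 2321, 2401 and 2437 CPM with SRSF2. That rise was 1.57-fold (log2 0.65, SE 0.04, edgeR adjusted p = 1.62e-16) and ranked 2480.

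RSAD2 encodes viperin, a radical SAM enzyme that converts CTP to a chain terminator of viral RNA synthesis. CMPK2, next to it, encodes a mitochondrial nucleotide kinase. RSAD2 (ENSG00000134321, chromosome 2, 6865806 to 6898239, plus strand) and CMPK2 (ENSG00000134326, 6840570 to 6866635, minus strand) overlap over 830 bases, but only 14 bases of their exons coincide, which is 0.290% of the exonic bases of RSAD2. RSAD2 had few counts in untreated A549, 14, 5 and 7, against 57, 61 and 45 with SRSF2. This was 0.301 ± 0.165 CPM against 2.07 ± 0.285 CPM, a 6.88-fold rise (counting interval 4.53 to 10.8, edgeR adjusted p = 3.04e-09). In H1650, RSAD2 went from 67.5, 67.2 and 61.5 CPM to 1846, 1621 and 1532 CPM. It rose 25.3-fold there (log2 4.67, SE 0.06, edgeR adjusted p = 1.11e-35) and ranked 13 of all genes tested.

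CMPK2 gave 0.663, 0.954 and 1.02 CPM in untreated A549 and 6.99, 6.43 and 5.77 CPM with SRSF2, a 7.26-fold rise (counting interval 5.69 to 9.36, edgeR adjusted p = 8.88e-17). In H1650 it went from 67.9, 64.1 and 66.4 CPM to 327, 353 and 362 CPM, a 5.26-fold rise (log2 2.39, SE 0.05, edgeR adjusted p = 5.50e-30). In both lines every SRSF2 library was above every untreated library. CMPK2 was the gene whose folds in the lines were closest after those of IFIT5.

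The pair was therefore also described by the share of RSAD2 in their summed counts. In untreated H1650 the share was 49.8% (95% Clopper-Pearson interval 48.3 to 51.3%), 51.2% (49.6 to 52.7%) and 48.1% (46.5 to 49.6%) in the 3 libraries. With SRSF2 it was 84.97% (84.7 to 85.3%), 82.1% (81.8 to 82.4%) and 80.9% (80.6 to 81.2%). RSAD2 and CMPK2 thus had nearly equal counts before and unequal counts after, a change of 32.97 points (exact two-sided permutation p = 0.1, the smallest that 3 against 3 libraries allow). In A549 the share was 25.7 ± 14.6% untreated and 24.4 ± 0.850% with SRSF2, a change of -1.24 points (exact two-sided permutation p = 1). The untreated A549 libraries held only 32 to 37 counts of the pair, and replicate 1 was at 42.4% (25.5 to 60.8%) against 15.6% (5.28 to 32.8%) and 18.9% (7.96 to 35.2%). Without that library the change was 7.14 points, so its direction was not determined at this depth. These intervals cover counting error only.

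**Figure D2:**
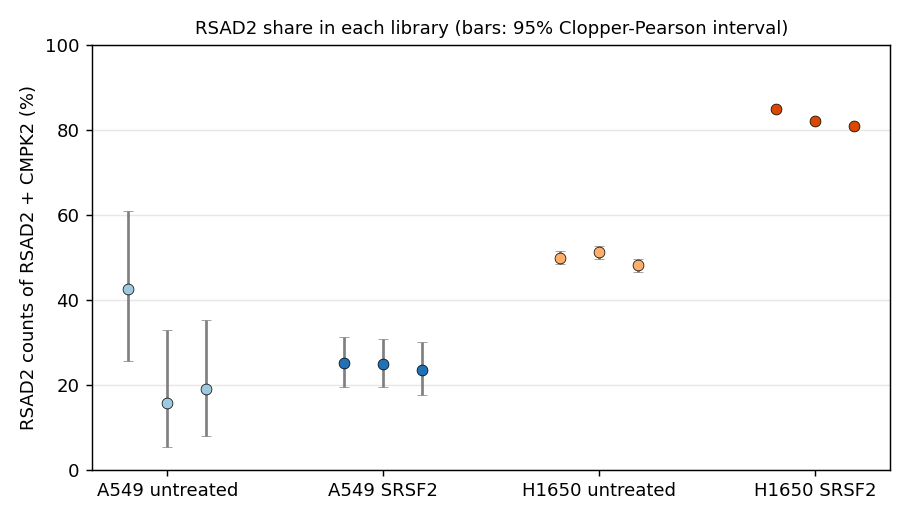
Share of RSAD2 in the summed counts of RSAD2 and CMPK2 in each library, in percent, with 95% Clopper-Pearson intervals as bars. The H1650 SRSF2 libraries sit between 80.9% and 84.97%, above the untreated H1650 libraries near 50%, while the A549 groups overlap.

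IFI6 encodes a small membrane protein with antiviral and anti-apoptotic activity (ENSG00000126709, chromosome 1, 27666061 to 27672218, minus strand). An antisense gene, AL445490.1, overlaps it. It gave 4.47, 5.34 and 4.26 CPM in untreated A549 and 33.4, 29.2 and 32.1 CPM with SRSF2. The groups were well apart, with a 6.72-fold rise (counting interval 6.05 to 7.48, edgeR adjusted p = 1.32e-21). In H1650, IFI6 gave 1205, 1237 and 1394 CPM untreated and 1724, 2015 and 2009 CPM with SRSF2, a 1.51-fold rise (log2 0.58, SE 0.05, edgeR adjusted p = 2.42e-12).

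IFI44 and IFI44L are related genes that lie 3.65 kb apart on the plus strand of chromosome 1, and their proteins are reported to restrain virus replication. IFI44 (ENSG00000137965, 78649796 to 78664078) had 7, 3 and 11 counts in untreated A549 and 57, 90 and 68 with SRSF2, which is 0.242 ± 0.134 against 2.71 ± 0.401 CPM. The rise was 11.2-fold (counting interval 7.16 to 18.5, edgeR adjusted p = 2.30e-13). In H1650 it went from 257, 256 and 235 CPM to 759, 739 and 729 CPM, a 2.97-fold rise (log2 1.57, SE 0.04, edgeR adjusted p = 4.99e-26).

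IFI44L (ENSG00000137959, 78619922 to 78646145) had 1 count in each untreated A549 library and 18, 30 and 21 counts with SRSF2. The ratio was 25.2, but with 3 counts in the lower group its counting interval ran from 8.28 to 125 (edgeR adjusted p = 1.52e-09). In H1650, IFI44L was at 148, 148 and 145 CPM untreated and at 208, 196 and 220 CPM with SRSF2. This 1.42-fold rise (log2 0.50, SE 0.04, edgeR adjusted p = 1.45e-12) was the smallest of the 7 in that line, while its neighbour IFI44 rose more. Reads that the related genes could share were not examined.

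**Figure D3:**
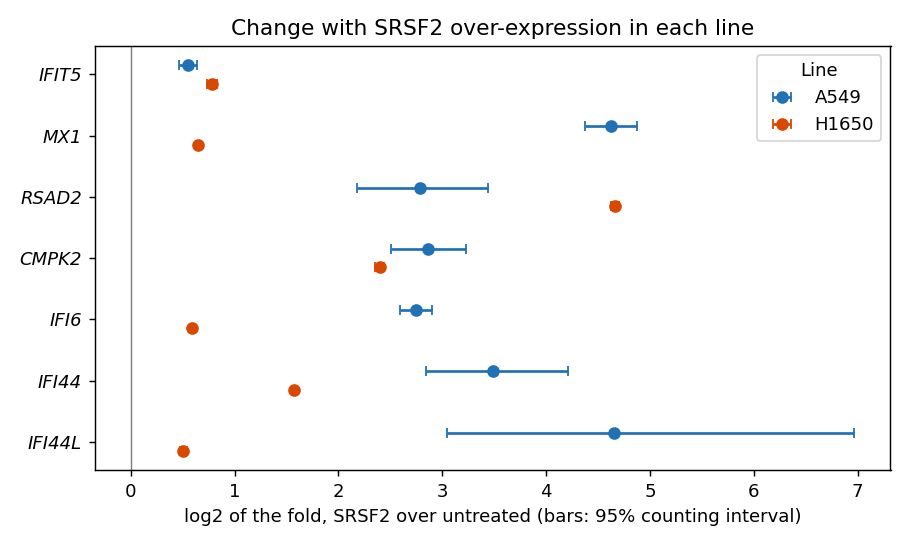
Fold of the SRSF2 over the untreated group for each gene in each line, on a log2 axis, from summed counts scaled by library; bars are 95% counting intervals and are shorter than the point for most H1650 values. The A549 point lies to the right of the H1650 point for MX1, CMPK2, IFI6, IFI44 and IFI44L and to the left for IFIT5 and RSAD2.

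All 7 genes were called higher in A549 (edgeR adjusted p under 0.05), a call that 16.4% of the 15991 genes tested received. In all 7 the groups did not overlap, with SRSF2 higher, as for 22.7% of all genes. Their median log2 fold change was 2.85, against 0.00 over all genes tested, and 6 of them rose at least 2-fold, against 2.05% of all genes. In H1650, 7 of 7 genes were called higher, against 31.0% of all genes. Again no gene's groups overlapped, against 32.1% with SRSF2 higher. The median was 0.78, and 3 of the 7 (RSAD2, CMPK2 and IFI44) rose at least 2-fold, against 8.75% of all genes. The 7 genes were chosen with earlier results of these data known, so these counts are no independent evidence. All 7 still passed without any 1 of the H1650 SRSF2 libraries. Without replicate 1, RSAD2 was at log2 4.59, IFI6 at log2 0.65 and IFI44L at log2 0.50. Without replicate 3 they were at log2 4.73, 0.54 and 0.46. The SE of a log2 fold change was worked back from the edgeR statistic. For genes with few untreated A549 counts it can be smaller than counting error, so counting intervals are given for that line. In bulk RNA, a change in the number of cells that express a gene and a change in RNA per cell cannot be told apart.

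The order by fold in A549 was IFI44L, MX1, IFI44, CMPK2, RSAD2, IFI6 and IFIT5. Counting intervals did not overlap between MX1 and IFI44 or between IFI6 and IFIT5. They overlapped between all other neighbours in that order, which was therefore not resolved there. The interval of IFI44L also overlapped those of IFI44, CMPK2 and RSAD2. Counting intervals come from summed counts and leave out the spread between libraries, so a gap between them covers counting error only. In H1650 the order was RSAD2, CMPK2, IFI44, IFIT5, MX1, IFI6 and IFI44L. The 95% intervals of the log2 fold changes of RSAD2, CMPK2 and IFI44 were apart from each other and from the rest. From IFIT5 (0.69 to 0.87) through MX1 (0.57 to 0.72) and IFI6 (0.49 to 0.68) to IFI44L (0.42 to 0.59), each overlapped the next.

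The effect of SRSF2 differed between the lines for all 7 genes in the test of the difference itself (A549 minus H1650), which 47.5% of all genes passed in either direction. Of the differences, 5 were positive, a call that 24.0% of all genes received. They were those of IFI44L (log2 3.99, SE 0.48, edgeR adjusted p = 1.78e-08), MX1 (log2 3.97, SE 0.10, edgeR adjusted p = 1.58e-25), IFI6 (log2 2.17, SE 0.11), IFI44 (log2 1.89, SE 0.28) and CMPK2 (log2 0.46, SE 0.18, edgeR adjusted p = 0.0296). The other 2 were negative, against 23.5% of all genes: RSAD2 (log2 -1.91, SE 0.42, edgeR adjusted p = 2.90e-04) and IFIT5 (log2 -0.23, SE 0.07, edgeR adjusted p = 0.00792). For genes with few untreated A549 counts these SEs, too, can be smaller than counting error, and no counting interval was computed for the difference. The CMPK2 difference rested on single libraries, with an edgeR adjusted p of 0.225 without A549 untreated replicate 1 and 0.0717 without A549 SRSF2 replicate 1. That of RSAD2 was weaker without A549 untreated replicate 1 (log2 -1.38, edgeR adjusted p = 0.0417). The IFIT5 difference was lost when plain library totals replaced TMM scaling (log2 -0.15, edgeR adjusted p = 0.0799).

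Folds and amounts ordered the lines differently for the 5 genes whose fold was larger in A549, because the starting levels were so far apart. MX1 gained 38.1 CPM in A549 and 864 CPM in H1650. IFI6 gained 26.9 CPM in A549 and 637 CPM in H1650. RSAD2, whose fold was also larger in H1650, gained 1.77 CPM in A549 and 1601 CPM in H1650. For all 7 genes the gain in CPM was larger in H1650, whichever line had the larger fold.

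In untreated cells, all 7 genes were higher in H1650 than in A549 (edgeR adjusted p at most 9.19e-25), where 40.1% of all genes were called higher and 40.9% were higher without overlap of the groups. The ratios ran from 2.97 for IFIT5 and 75.2 for CMPK2, through 217 for RSAD2, 273 for IFI6 and 945 for MX1, to 1025 for IFI44 (counting interval 670 to 1656). For IFI44L the ratio was 4226, with a counting interval from 1446 to 20497 because untreated A549 held 3 counts. The median log2 difference was 8.09 against -0.04 over all genes, and IFI44L, IFI44 and MX1 ranked 2, 8 and 9 of 15991. Libraries with SRSF2 showed the same direction for all 7 (40.5% of all genes called higher). There the largest ratio was that of RSAD2, 799.7, followed by IFI44 with 271 and IFI44L with 238, while IFI6 (61.2), MX1 (60.2), CMPK2 (54.5) and IFIT5 (3.48) differed less. These comparisons share libraries with those above. Of the 6 epithelial markers, CDH1, EPCAM and KRT19 were far higher in H1650 than in A549. The others went the other way in untreated cells: KRT8, KRT18 and KRT7 gave 4213, 1125 and 1997 CPM in H1650 against 5008, 1884 and 2807 CPM in A549. In A549, CDH1 and EPCAM were lower with SRSF2 (CDH1 26.2 ± 1.62 and EPCAM 3.72 ± 0.672 CPM) than without it (38.2 ± 3.07 and 5.72 ± 0.451 CPM). KRT8 and KRT18 were also lower with SRSF2 in A549 (4501 ± 41.8 and 1599 ± 22.5 CPM), and KRT7 was higher (3052 ± 46.1 CPM). KRT19 was higher with SRSF2 in A549 (121 ± 5.09 CPM) than without it (97.9 ± 1.23 CPM). In H1650, KRT19 was lower with SRSF2 (625 ± 21.98 CPM) than without it (1304 ± 5.60 CPM). Whether cells of the other line were present was not tested.

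Levels were compared between genes only per kilobase of exon, with exons joined over all GENCODE 29 transcripts of a gene. On this scale IFI6 was the highest of the 7 in H1650, at 1478 ± 117 CPM per kb untreated and 2215 ± 192 CPM per kb with SRSF2. These levels were at percentiles 99.98 and 99.99 of 16139 genes ranked. RSAD2 moved from percentile 78.1 in untreated to percentile 99.6 in SRSF2 H1650 cells, and CMPK2 from 80.5 to 96.96. MX1 was at percentile 99.2 before and 99.5 after. In A549, IFIT5 (5.83 ± 0.146) and IFI6 (5.42 ± 0.661 CPM per kb) had the highest untreated levels, at percentiles 60.7 and 59.0, and did not differ beyond their spread. With SRSF2, IFI6 stood at percentile 93.3, IFIT5 at 69.5, MX1 at 55.5 and the other 4 genes below 37.

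Added up, the 7 genes took 31.2 ± 0.765 CPM in untreated A549, 118 ± 3.63 CPM in SRSF2 A549, 3398 ± 108 CPM in untreated H1650 and 7385 ± 72.7 CPM in SRSF2 H1650 libraries. In untreated A549, IFIT5 supplied 75.1 ± 0.540% of their counts and IFI6 15.02 ± 1.57%. With SRSF2 in that line MX1 supplied 33.8 ± 0.240%, IFIT5 29.1 ± 0.998% and IFI6 26.8 ± 1.67%. In untreated H1650, MX1 (44.8 ± 0.930%) and IFI6 (37.6 ± 1.86%) made up most of the counts, and RSAD2 1.93 ± 0.157%. With SRSF2, RSAD2 supplied 22.6 ± 2.40%. Long genes weigh more in these shares, which are not corrected for length.

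**Figure D4:**
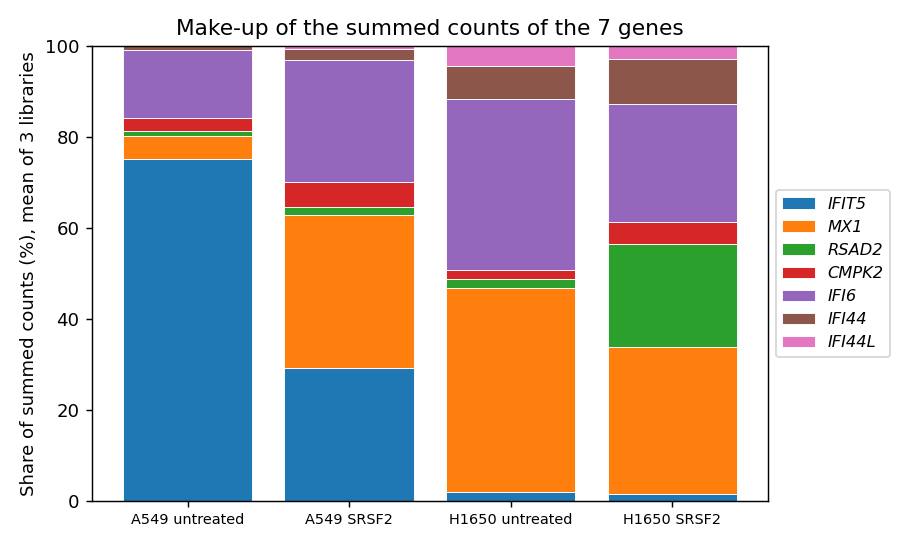
Share of each gene in the summed counts of the 7 genes, in percent, as the mean of 3 libraries per group. IFIT5 fills most of the untreated A549 bar, MX1 and IFI6 fill most of the untreated H1650 bar, and RSAD2 grows from 1.93% to 22.6% between the H1650 bars.

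Of 76 other interferon pathway genes that were listed, 59 were tested. None of the 6 interferon ligands listed had a row, and their RNA was not analysed here. In A549, 47 of 59 genes were higher and 2 lower, where 16.4% and 15.9% of all genes were called, with a median log2 fold change of 0.64. In H1650, 46 were higher and 5 lower, where 31.0% and 31.3% of all genes were called, with a median of 0.77. The test of the difference between the lines called 24 as more positive and 22 as more negative in A549 (24.0% and 23.5% of all genes), with a median of -0.04. In untreated cells 47 were higher and 10 lower in H1650 than in A549, where 40.1% and 42.3% of all genes were called. The list was chosen with earlier results of these data known, so its direction is no independent evidence.

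Among the 6 receptor genes, 3 were higher and 0 lower in A549, and 2 were higher and 2 lower in H1650. IFNAR1 and IFNAR2, the chains of the type I receptor, rose in A549 (log2 0.18 and 0.29) and fell in H1650 (log2 -0.30 and -0.48). The edgeR adjusted p of these 4 changes was at most 0.00591. IFNLR1, the type III receptor chain, rose in H1650 (log2 0.39, edgeR adjusted p = 1.05e-04) and gave log2 -0.15 in A549 (edgeR adjusted p = 0.350). IFNGR1 rose in A549 (log2 0.23, edgeR adjusted p = 4.35e-04) and IL10RB rose in H1650 (log2 0.20, edgeR adjusted p = 0.0316), whereas IFNGR2 passed in neither line (log2 0.11 and 0.10).

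Of the 8 signalling genes tested, 6 were higher and 0 lower in A549, and 4 were higher and 1 lower in H1650. IRF1 rose by log2 0.35 in A549 and by log2 1.65 in H1650. IRF7, a transcription factor that amplifies interferon production, went in opposite directions. It rose from 4.05 ± 0.650 to 17.9 ± 1.41 CPM in A549 (log2 2.14, SE 0.12, edgeR adjusted p = 1.22e-15). It fell from 1.10 ± 0.261 to 0.524 ± 0.127 CPM in H1650 (log2 -1.05, SE 0.28, edgeR adjusted p = 0.00143). Unlike the 7 effector genes, IRF7 was lower in untreated H1650 than in untreated A549 (log2 -1.87, edgeR adjusted p = 2.01e-11).

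Of the 10 sensor and adaptor genes tested, 6 were higher and 1 lower in A549, and 7 were higher and 2 lower in H1650. IFIH1 (log2 2.12 in A549 and 2.44 in H1650) and RIGI (log2 2.00 and 2.22), which detect viral RNA, rose in both. DHX58, a related helicase, rose by log2 1.15 and 1.91. In the OAS system, which responds to double-stranded RNA, OASL rose by log2 3.63 and 3.68 and OAS1 by log2 0.61 and 1.37.

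Among 30 other antiviral effectors tested, 28 were higher and 0 lower in A549, and 29 were higher and 0 lower in H1650. The test of the difference between the lines called 14 of them more positive and 10 more negative in A549 (24.0% and 23.5% of all genes). The 3 named next have the smallest adjusted p in either line. All rose more in H1650, so they do not stand for the class. The exonuclease gene ISG20 rose from 29.7 ± 1.254 to 380 ± 17.8 CPM in H1650 and from 13.1 ± 0.331 to 23.4 ± 1.67 CPM in A549. The zinc-finger antiviral gene ZC3HAV1 rose from 179 ± 5.62 to 2187 ± 295 CPM in H1650 and from 147 ± 7.63 to 169 ± 3.98 CPM in A549. HERC5, the ligase that attaches ISG15, rose by log2 2.76 in H1650 and by log2 0.77 in A549. Both tested negative regulators rose in both lines: USP18, which removes ISG15 and dampens receptor signalling (log2 0.40 in A549 and 1.32 in H1650), and SOCS3 (log2 1.11 and 1.45).

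**Figure D5:**
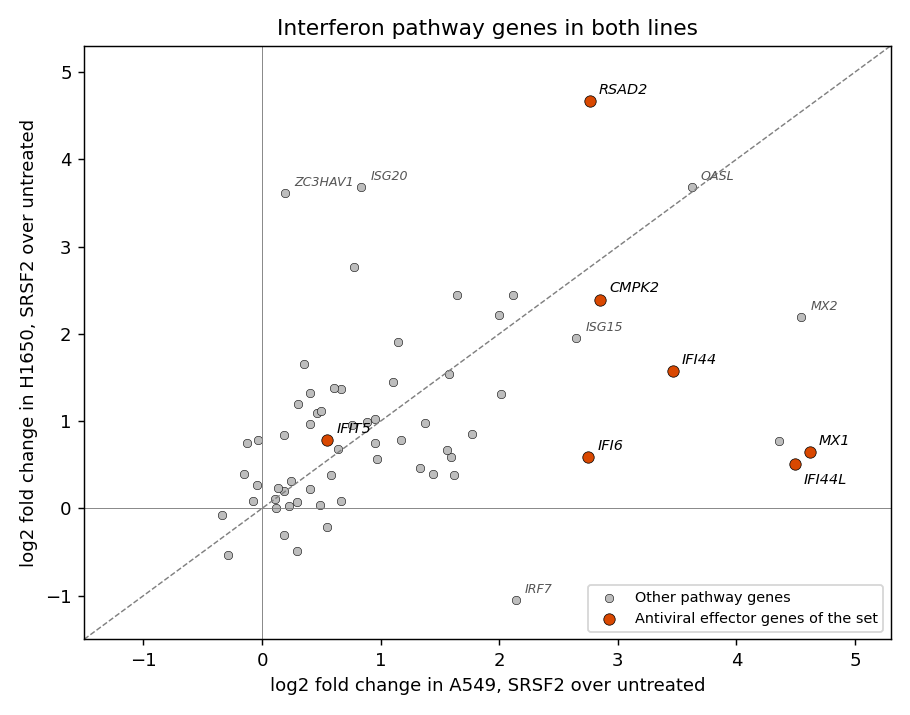
log2 fold change with SRSF2 over-expression in A549 (horizontal axis) and H1650 (vertical axis) for the 7 antiviral effector genes (orange) and 59 other interferon pathway genes (grey); the dashed line marks equal change. MX1, IFI44L, IFI6 and IFI44 lie below the line, RSAD2, ISG20 and ZC3HAV1 above it, and IRF7 is the labelled gene below 0 in H1650.

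MX2, the paralog of MX1, lies 10.9 kb from it, and was the only other tested gene within 100 kb of MX1. Its mean went from 0.0463 CPM, a level of few counts, to 1.18 CPM in A549 (log2 4.55, edgeR adjusted p = 1.94e-08) and from 1.13 to 5.14 CPM in H1650 (log2 2.19, edgeR adjusted p = 8.37e-11). LIPA, a lysosomal lipase gene next to IFIT5, gave log2 0.10 in A549 (edgeR adjusted p = 0.0600) and rose by log2 0.81 in H1650 (edgeR adjusted p = 3.23e-19). Its span in GENCODE 29 overlaps IFIT1, IFIT2 and IFIT3 on the other strand, and the part of reads from those genes in its count was not tested. Near RSAD2, RNF144A gave log2 -0.17 in A549 (edgeR adjusted p = 0.0560) and rose by log2 0.55 in H1650. GRASLND, 14.0 kb from RSAD2, gave log2 0.14 in A549 (edgeR adjusted p = 0.784). In H1650 it rose by log2 2.85 (edgeR adjusted p = 1.05e-04), from 0.0551 to 0.422 CPM, levels of few counts. Near IFI6, AHDC1 fell by 0.48 on the log2 scale in H1650 and FAM76A fell by 0.63, while in A549 they gave log2 0.06 and 0.07.

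The genes whose pattern over the 12 libraries was most like the mean of the 7 (Pearson correlation of log2 CPM, prior count 1) were ISG15 (0.999), SAMD9L (0.999), DTX3L (0.998), NLRC5 (0.998), SESN2 (0.998), FRMD6 (0.998), PARP12 (0.998) and HELZ2 (0.998). The 7 genes correlated with their own mean at between 0.980 for RSAD2 and 0.997 for IFI44. The closest single gene was SP100 for IFIT5, STC2 for MX1, KLF6 for RSAD2, OASL for CMPK2, PARP10 for IFI6 and IFI44L, and SAMD9L for IFI44. The difference between the lines dominates these correlations, and libraries of a group share their line and treatment, so they are descriptions of 12 libraries in 4 groups. STC2, for example, followed MX1 at 0.996 although it rose by log2 0.77 in A549.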

How the data were processed

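The authors deposited raw counts per gene. The submitters' processing notes name fastp (0.20.1), the aligner STAR (2.7.7a), featureCounts (2.0.0) and the build GRCh38. Not given in the sources used here are the annotation release, the use of strand and how genes were selected for the table. The authors also deposited FPKM, which equals those counts divided by library total and by a gene length that, for the 7 genes, equals the genomic span with introns, so it served in alternatives only.

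Symbols came from a gene name table and coordinates from GENCODE 29 (GRCh38). Counts of 12 libraries were fitted with edgeR 4.0.16 in R 4.3.3 (filterByExpr, TMM, quasi-likelihood, 1 mean per group, 8 residual degrees of freedom). All 15991 genes tested entered the Benjamini-Hochberg adjustment, with calls made below an adjusted p of 0.05. Counting intervals are exact and come from summed counts. The pipeline was tested on simulated counts. Replicate pairs differed by more than sampling noise (chi-square over its degrees of freedom from 2.24 to 7.78).

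The genes, lists and tests were chosen with earlier results of these data known. Genes named beside the 7 were, per pathway class, the 3 with the smallest adjusted p in either line, all tested receptors and negative regulators, the genes with the most similar pattern, and, chosen after their values were seen, neighbours within 100 kb. Some genes that meet these rules are not reported here. Alternatives were DESeq2 1.42.0, other scaling, no filter, fewer libraries, a replicate block and limma 3.58.1 on log2(FPKM + 1) and log2(FPKM + 0.1).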

Additional observations from a re-analysis of the deposited data

Results flagged for a closer look

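The effect of SRSF2 differed between the lines, in edgeR's test of the difference (A549 minus H1650, on the log2 scale), for all 7 genes. The values were 3.99 for IFI44L, 3.97 for MX1, 2.17 for IFI6, 1.89 for IFI44, 0.46 for CMPK2, -0.23 for IFIT5 and -1.91 for RSAD2. Of the 18 pathway genes named by rule and reported here, 14 differed as well. The 4 with a more positive effect in A549 were IRF7 (3.19), IFNAR2 (0.78), IFNAR1 (0.49) and IFNGR1 (0.20). The 10 with a more positive effect in H1650 were ZC3HAV1 (-3.42), ISG20 (-2.84), HERC5 (-1.99), IRF1 (-1.30), USP18 (-0.92), OAS1 (-0.77), IFNLR1 (-0.54), SOCS3 (-0.34), IFIH1 (-0.33) and RIGI (-0.22). Of all genes tested, 47.5% differed in this test. The 18 include genes picked for a small adjusted p of the SRSF2 effect in either line, so their count cannot be compared with that share. For the same reason their split by direction does not describe the whole pathway list. There, 24 of the 59 genes tested were more positive and 22 more negative in A549.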

How the results depend on the processing

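For the 7 genes, 693 log2 fold changes were recomputed under the alternatives, and 682 kept their direction and their side of the threshold. The number of genes called stayed at 7 in H1650 and in both comparisons between the lines under every alternative run. In A549 it was 7 except on log2(FPKM + 1) with limma-trend, where it was 5 and RSAD2 (log2 0.08, adjusted p = 0.298) and IFI44L (log2 0.05, adjusted p = 0.337) were lost. For the line difference 5 to 7 were called. On log2(FPKM + 1) the difference reversed for CMPK2 (-1.67), IFI44 (-1.21) and IFI44L (-0.32), and on log2(FPKM + 0.1) for CMPK2 (-0.88). On log2(FPKM + 0.1) the sign also changed for IFI44 (-0.16, limma-trend adjusted p = 0.247) and IFI44L (-0.0141, limma-trend adjusted p = 0.889), but neither passed. These scales understate the change of genes with low values, and the FPKM of genes with long introns is low. With the replicate block all 7 genes were called in each of the 5 comparisons. Residuals of same-numbered libraries correlated at only -0.0292 to 0.0406 over 18 pairs, so no strong shared effect of the replicate number was seen. The labels do not say whether same-numbered libraries were handled together. Leaving out 1 library, 6 to 7 genes were called for the line difference, and the share of RSAD2 changed by 31.8 to 33.9 points in H1650 and by -6.26 to 7.14 points in A549. Plain library totals moved the median of all genes between SRSF2 lines from -0.06 to -0.17 on the log2 scale. At a prior count of 5, 4 of 7 closest single genes and 7 of the 8 genes most like the mean stayed the same. Counts of 1 to 14 per library in untreated A549 limit the folds of RSAD2, IFI44 and IFI44L there.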
